A study of Mus musculus with 3 samples.

Results

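*Cap1*, *Skap1*, *Pik3r1* and *Tenm4* are 4 of the 32285 genes counted in single cells of the mouse embryonic kidney. They were chosen from these same data as genes outside the *Hox* clusters whose level in nephron progenitors differed between *Enl*-T1 kidneys treated with the ENL inhibitor TDI-11055 and untreated *Enl*-T1 kidneys: *Cap1* and *Skap1* were higher with treatment, *Pik3r1* and *Tenm4* lower. The levels in treated and untreated *Enl*-T1 progenitors are therefore given as a description, and the text follows the 4 genes from there into the other cell types and the *Enl*-WT kidney.

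Whole kidneys of E15.5 embryos (days after conception) were dissociated and sequenced as 3 droplet libraries, 1 for each group. *Enl*-WT embryos had 2 unmodified copies of *Enl* (*Mllt1*) and *Enl*-T1 embryos carried 1 conditional knock-in copy with the T1 insertion found in Wilms tumour, and both of these libraries were labelled as untreated. The third library came from *Enl*-T1 embryos whose mothers received a daily oral dose of 100 mg/kg TDI-11055 between E10.5 and E14.5. All 3 groups carried 1 *Wt1* GFPCre knock-in copy, which switches on the T1 allele in cells that expressed *Wt1* (the nephron and stromal lineages, not the ureteric epithelium) and leaves 1 working *Wt1* allele in every group. No treated *Enl*-WT library was analysed here, so an action of the compound on T1 and its action on unmodified ENL cannot be told apart. Embryos were pooled within a library and no cell could be assigned to an embryo. With 1 library per group there is no test between groups: levels are unique molecular identifiers (UMIs) of the summed cells per 1000000 counted (CPM), and intervals, at 95% throughout, reflect only the error of counting.

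The 4 genes act at different places in the cell. *Cap1* encodes a cyclase-associated protein that recycles actin monomers and works with cofilin to take filaments apart. *Skap1* encodes an adaptor best known from T cells, where it links receptor signalling to integrin adhesion through RAP1. *Pik3r1* encodes the p85 regulatory subunit that stabilises and restrains the catalytic subunit of phosphoinositide 3-kinase, which acts downstream of growth factor receptors such as those for GDNF, FGF and insulin. *Tenm4* encodes a large transmembrane teneurin that binds partners on neighbouring cells. Nephron progenitors sit in the cap mesenchyme around the ureteric tip, renew themselves under *Six2* and *Cited1*, and leave that state in response to WNT signals to form the epithelium of the nephron.

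Per the GENCODE annotation of build GRCm38, *Cap1* (ENSMUSG00000028656) lies on chromosome 4 from 122859047 to 122886056 on the minus strand and *Skap1* (ENSMUSG00000057058) on chromosome 11 from 96464593 to 96759130 on the plus strand. *Pik3r1* (ENSMUSG00000041417) lies on chromosome 13 from 101680563 to 101768217 on the minus strand and *Tenm4* (ENSMUSG00000048078) on chromosome 7 from 96171246 to 96911093 on the plus strand. All 4 code for protein. RefSeq promoter entries (build GRCm38.p6) matched 3 of the 4 genes, *Skap1* being the one without an entry. The 250 bases before the first listed start of each are shown because *Pik3r1* and *Tenm4*, both lower with treatment in progenitors, begin behind sequences of very different make-up. Capitals mark CG pairs, and each sequence reads 5′ to 3′ on the gene's own strand.
Cap1, chr4:122886077-122886326, minus strand: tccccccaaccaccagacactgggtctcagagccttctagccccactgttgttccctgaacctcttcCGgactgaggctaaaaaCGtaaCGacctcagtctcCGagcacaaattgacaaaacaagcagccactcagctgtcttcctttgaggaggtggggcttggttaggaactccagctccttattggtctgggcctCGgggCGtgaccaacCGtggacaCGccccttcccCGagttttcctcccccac
Pik3r1, chr13:101768218-101768467, minus strand: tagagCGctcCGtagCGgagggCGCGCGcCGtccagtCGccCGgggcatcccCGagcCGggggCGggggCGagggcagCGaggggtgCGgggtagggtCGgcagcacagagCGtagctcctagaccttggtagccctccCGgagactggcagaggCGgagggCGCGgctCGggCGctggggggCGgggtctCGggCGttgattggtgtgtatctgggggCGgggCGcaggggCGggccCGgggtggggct
Tenm4, chr7:96170994-96171243, plus strand: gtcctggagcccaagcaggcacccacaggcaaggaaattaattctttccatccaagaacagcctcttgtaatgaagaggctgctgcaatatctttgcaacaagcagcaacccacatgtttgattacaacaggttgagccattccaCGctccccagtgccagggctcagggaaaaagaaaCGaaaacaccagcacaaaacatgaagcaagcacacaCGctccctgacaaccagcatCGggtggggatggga
These windows held 9 CG pairs for *Cap1*, 30 for *Pik3r1* and 4 for *Tenm4*, against a median of 6 over 32851 promoters, and 5.94% of promoters held at least as many as the *Pik3r1* window. A second *Pik3r1* start had 6 CG pairs and a second *Tenm4* start had 8. The letters CCAAT, searched on both strands, were present in the *Cap1* window and the first *Pik3r1* window, as in 33.8% of promoters. No factor binding was measured in these libraries, so the letters are a description of the windows.

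Barcodes with 1000 to 6000 detected genes and at most 10% mitochondrial counts were kept, which left 5233 *Enl*-WT, 4144 *Enl*-T1 and 2754 TDI-11055-treated *Enl*-T1 cells of between 6453 and 7186 barcodes per library. The libraries also differed in ways that cannot be told apart from genotype and treatment. The kept share of barcodes was 72.8%, 63.0% and 42.7%, and the median depth was 5090, 9391 and 16931.5 UMIs per cell. Cells called female (*Xist* UMIs and no Y-linked UMI) made up 26.5%, 73.3% and 35.1%. Those called male (the reverse) made up 46.5%, 16.5% and 35.4%. The remaining cells had no call, and a call depends on depth. The libraries shared 10 to 14 barcodes pairwise, of which 5 to 8 were among the kept cells. Doublets were left in. Cell classes were rebuilt by clustering without the 4 genes, without *Hox* genes and without mitochondrial, ribosomal, haemoglobin and sex-linked genes, and were named from markers. In NP1-like progenitors, the class nearest the self-renewing state, *Mllt1*, which encodes ENL, had 29.97, 20.9 and 19.3 CPM in *Enl*-WT, *Enl*-T1 and treated *Enl*-T1, and *Wt1* had 169.2, 114.0 and 67.5 CPM. The counts do not separate the T1 allele from the unmodified one.

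The NP1-like class held 843 *Enl*-WT, 781 *Enl*-T1 and 730 treated *Enl*-T1 cells in 4 clusters. The first was led by *Rspo3*, *Cited1* and *Ppp1r14a*, genes of the cap mesenchyme. Another was led by *Hist1h2bc*, *Prrx1* and *C1qtnf12*. The remaining clusters were led by genes of DNA replication (*Rrm2*, *Ccne2*, *Pclaf*) and of mitosis (*Ube2c*, *Nusap1*, *Ccnb1*). Markers of NP1 were among the 10 leading genes of the *Rspo3*-led cluster and of none of the other 3. The summed level of the 9 NP1 markers was 1121, 424 and 857 CPM in *Enl*-WT, *Enl*-T1 and treated *Enl*-T1, all 9 being detected in each. The 9 markers of NP2, the class next to differentiate, were also all detected and summed to 469, 662 and 495 CPM. In untreated *Enl*-T1, unlike the other libraries, the NP2 sum was thus above the NP1 sum.

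*Cap1*, the actin-recycling gene, was lowest in untreated *Enl*-T1 progenitors. It had 39.3 CPM in *Enl*-WT (33.9 to 45.4), 19.2 in *Enl*-T1 (16.5 to 22.2) and 49.9 in treated *Enl*-T1 (46.0 to 54.0). The 3 intervals did not overlap. The treated level was 2.60 times the untreated *Enl*-T1 level (2.20 to 3.09) and 1.27 times the *Enl*-WT level (1.07 to 1.5), and *Enl*-T1 had 0.488 times the *Enl*-WT level (0.395 to 0.602). The same order held in each of the 4 NP1-like clusters, where the ratio of treated to untreated *Enl*-T1 ran from 2.03 to 2.91. The ratio of treated *Enl*-T1 to *Enl*-WT there ran from 1.12 to 1.62. Its interval lay above 1 in 1 cluster and included 1 in 3. Haemoglobin and other red-cell transcripts were also lowest in untreated *Enl*-T1 but highest in *Enl*-WT, with a summed level of 1894, 1222 and 1600 CPM over an 8-gene list (8, 8 and 7 detected). Their part in the *Cap1* difference was not tested.

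*Skap1* had its highest level in treated progenitors. It had 30.6 CPM in *Enl*-WT (25.8 to 36.0), 34.3 in *Enl*-T1 (30.7 to 38.3) and 106.5 in treated *Enl*-T1 (100.8 to 112.5). The treated level was 3.10 times that of untreated *Enl*-T1 (2.75 to 3.52) and 3.48 times that of *Enl*-WT (2.93 to 4.16), and the ratio of *Enl*-T1 to *Enl*-WT was 1.12 with an interval that included 1 (0.919 to 1.37), a log2 ratio of 0.17. That interval lay above 0 on the log2 scale under other settings: the ratio was 0.50 (0.21 to 0.79) with median-of-ratios scaling, 0.41 (0.12 to 0.70) with totals that leave out mitochondrial, ribosomal and haemoglobin genes, 0.35 (0.07 to 0.63) with NP2-like cells added, and 0.56 (0.13 to 0.99) in the *Rspo3*-led cluster. In male cells it was -0.28 (-0.84 to 0.26), and in every other setting with an interval (stricter cell filters, doublet removal, female cells, clustering on all variable genes, thinned cells) the interval also included 0. Within NP1-like cells the *Rspo3*-led cluster had the highest *Skap1* level in every library, at 47.0, 69.1 and 149.9 CPM, and the *Hist1h2bc*-led cluster had 15.3, 24.3 and 76.5. Markers of T cells were at or near 0. The T cell receptor subunits *Cd3e* and *Cd3d* had 0 UMIs in the NP1-like cells of all 3 libraries, the leukocyte gene *Ptprc* had 3, 5 and 4, and the lymphocyte kinase gene *Lck* had 13, 25 and 29. The summed level of a 10-gene immune list was 1.06, 2.75 and 0.985 CPM (3, 8 and 6 genes detected).

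*Pik3r1*, the p85 subunit gene, was highest in untreated *Enl*-T1 progenitors and lower in both other libraries. Its level was 30.4 CPM in *Enl*-WT (25.6 to 35.8), 124.2 in *Enl*-T1 (117.2 to 131.6) and 35.4 in treated *Enl*-T1 (32.1 to 38.9). *Enl*-T1 had 4.09 times the *Enl*-WT level (3.43 to 4.90), treated *Enl*-T1 had 0.285 times the untreated level (0.254 to 0.318), and the ratio of treated *Enl*-T1 to *Enl*-WT was 1.16 (0.961 to 1.42). The intervals of *Enl*-WT and treated *Enl*-T1 overlapped. In the *Rspo3*-led cluster the values were 33.5, 64.3 and 16.1 CPM, so the treated level there was below *Enl*-WT, with a ratio of 0.480 (0.328 to 0.706). The *Hist1h2bc*-led cluster had 24.2, 139.3 and 52.0 CPM and kept a treated level above *Enl*-WT, with a ratio of 2.15 (1.33 to 3.67). The pooled values of *Enl*-WT and treated *Enl*-T1 thus averaged over these 2 clusters, which differed from *Enl*-WT in opposite directions, and over 2 whose intervals included 1. Markers of the intermediate nephron stage, all 8 detected in each library, summed to 55.3, 132.1 and 44.3 CPM in these NP1-like cells, highest in untreated *Enl*-T1 as *Pik3r1* was, though lowest in treated *Enl*-T1 and not in *Enl*-WT, and 6 medullary stroma markers (5, 6 and 5 detected) summed to 9.99, 34.8 and 14.9. The 9 NP2 markers, at 469, 662 and 495 CPM, were likewise highest in untreated *Enl*-T1 and lowest in *Enl*-WT. The share of NP1-like cells called female, 25.4%, 69.4% and 30.3%, was also highest in untreated *Enl*-T1. In cells called male alone the log2 ratio of treated to untreated *Enl*-T1 was -2.05 for *Pik3r1*, against -1.81 in all cells. The part of these markers in the difference was not tested.

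*Tenm4* was lowest in treated progenitors. It had 83.3 CPM in *Enl*-WT (75.3 to 92.0), 113.8 in *Enl*-T1 (107.1 to 120.8) and 32.3 in treated *Enl*-T1 (29.2 to 35.7). The treated level was 0.284 times the untreated *Enl*-T1 level (0.253 to 0.319) and 0.388 times the *Enl*-WT level (0.337 to 0.447). The log2 ratio of treated *Enl*-T1 to *Enl*-WT, -1.37, lay within the range of genes of similar length, whose median was -1.04 and 5th percentile -1.73. The ratio of *Enl*-T1 to *Enl*-WT was 1.37 (1.22 to 1.54), a log2 ratio of 0.45, and its direction was not stable: it was -0.17 when cells with under 1500 genes or over 5% mitochondrial counts were left out, and -0.05 in the *Rspo3*-led cluster alone. In that cluster the levels were 43.8, 42.2 and 20.1 CPM, against 123.2, 130.7 and 30.1 in the mitotic cluster.

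**Figure D1:**
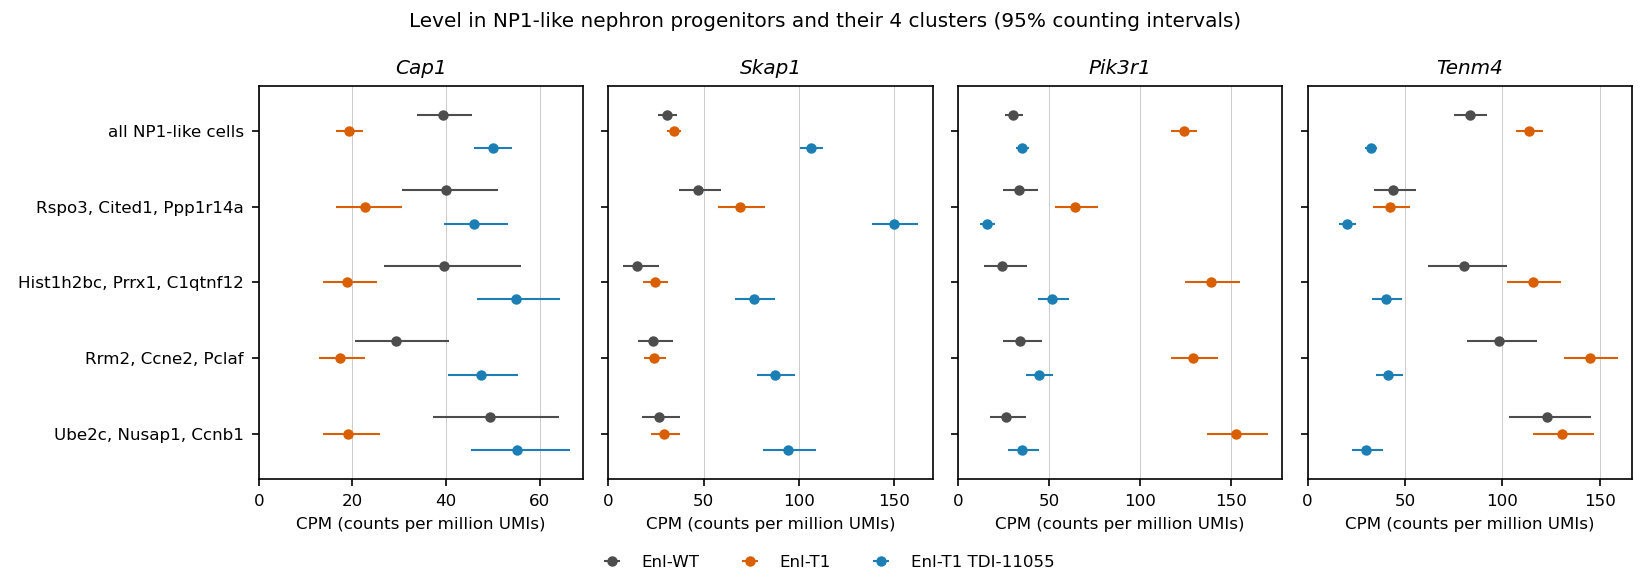
Level of each gene in CPM (horizontal axis) in all NP1-like cells and in their 4 clusters, named by leading genes (vertical axis), with 1 point per library and bars for the 95% counting interval. *Cap1* has its lowest point in untreated *Enl*-T1 in every row, *Skap1* its highest in treated *Enl*-T1, *Pik3r1* its highest in untreated *Enl*-T1, and *Tenm4* its lowest in treated *Enl*-T1.

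Among the 9830 genes with a mean of at least 5 CPM in NP1-like cells, 6.1% were at least 1.5-fold higher in treated than in untreated *Enl*-T1 and 7.5% at least 1.5-fold lower. Nothing is read from the place of the 4 genes on this scale, since this contrast chose them. *Skap1* ranked 29 and *Cap1* 43 from the highest ratio, and *Tenm4* ranked 34 and *Pik3r1* 36 from the lowest. The median log2 ratio over all these genes was 0.01, so the contrast between treated and untreated *Enl*-T1 was centred near 0. The contrast of *Enl*-T1 over *Enl*-WT was not: its median log2 ratio was -0.34, with 6.11% of genes at least 1.5-fold higher and 31.9% at least 1.5-fold lower. For treated *Enl*-T1 over *Enl*-WT, 6.46% of genes were at least 1.5-fold higher and 36.1% lower. Relative to the median of *Enl*-T1 over *Enl*-WT the log2 ratio was -0.70 for *Cap1*, 0.50 for *Skap1*, 2.37 for *Pik3r1* and 0.79 for *Tenm4*. The 2 contrasts share the *Enl*-T1 library, so a chance high or low count there moves both ratios in opposite directions.

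**Figure D2:**
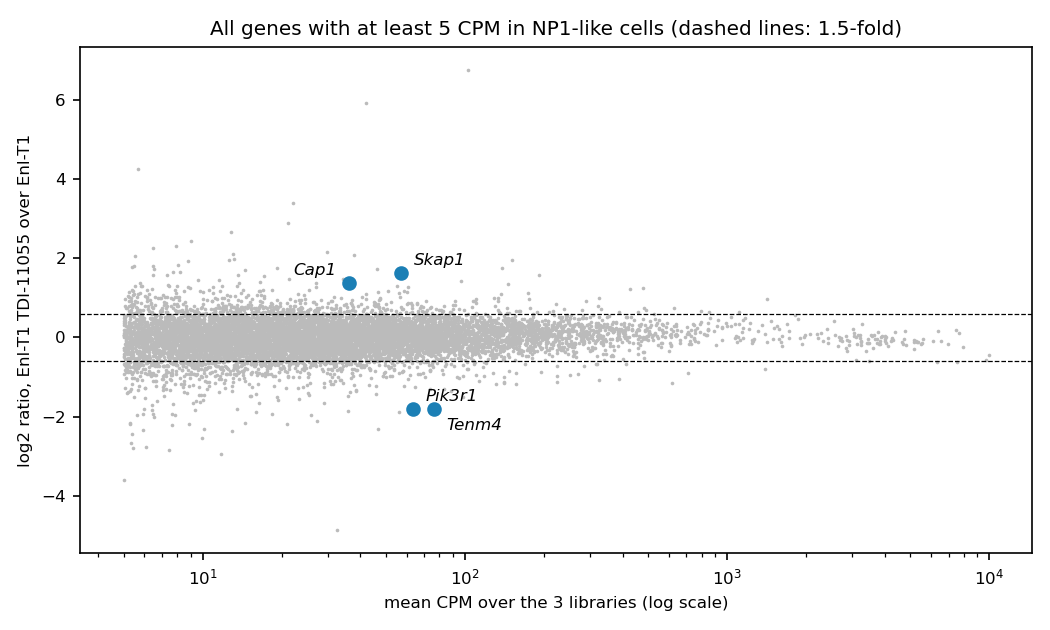
Log2 ratio of treated over untreated *Enl*-T1 (vertical axis) against the mean CPM of the 3 libraries (horizontal log axis) for the genes with at least 5 CPM in NP1-like cells, with 1 grey point per gene and the 4 genes in blue. Dashed lines mark 1.5-fold; *Cap1* and *Skap1* lie at 1.38 and 1.63, *Pik3r1* and *Tenm4* at -1.81.

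Longer transcripts had lower ratios on average in each contrast. Across genes, which are not independent replicates, the Spearman correlation of the log2 ratio with exonic length was -0.41 for treated over untreated *Enl*-T1 and -0.46 for *Enl*-T1 over *Enl*-WT. It was -0.64 for treated *Enl*-T1 over *Enl*-WT. *Cap1* has 3494 exonic bases, *Skap1* 7462, *Pik3r1* 10079 and *Tenm4* 21021. Genes of similar length had median log2 ratios of treated over untreated *Enl*-T1 of 0.11, -0.14, -0.18 and -0.27, and the distance of the members from these is not read as a result, since this contrast chose them. For treated *Enl*-T1 over *Enl*-WT the medians were -0.16, -0.73, -0.85 and -1.04, beside 0.34, 1.80, 0.22 and -1.37 for the members.

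The share of cells with at least 1 UMI moved with the level once every cell was thinned to 2000 UMIs, which removes the difference in depth. *Cap1* was seen in 7.56% of *Enl*-WT (5.86 to 9.57), 2.57% of *Enl*-T1 (1.58 to 3.94) and 9.89% of treated *Enl*-T1 NP1-like cells (7.82 to 12.3; exact binomial intervals). *Skap1* was seen in 5.52%, 6.80% and 15.1%. The share for *Pik3r1* was 5.28%, 20.7% and 6.18%, and for *Tenm4* 12.1%, 18.7% and 5.63%. Between 2 and 10 NP1-like cells per library were too shallow to thin. Unthinned, *Skap1* was seen in 15.1%, 25.7% and 59.0% of cells at median depths of 5084, 11306 and 18735 UMIs. Free RNA was not measured, and endothelial cells, in which *Skap1* was near absent, served only as a guide to it. There 0 of 384, 2 of 257 and 0 of 115 thinned cells held a *Skap1* UMI. Counts of 0 allow shares of up to 0.781% and 2.61%, and the interval for 2 of 257 reached 2.78%. Shares of *Skap1* in NP1-like cells were above these in every library.

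The UMIs were spread over many cells. In treated NP1-like cells the 36 cells with most *Skap1* UMIs (the top 5% of cells) held 22.8% of them and 293 of 730 cells had at least 2. *Pik3r1* in untreated *Enl*-T1 was similar, with 25.1% of UMIs in the top 39 cells and at least 2 UMIs in 272 of 781 cells. No NP1-like cell had more than 14 UMIs of any of the 4 genes.

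Across the other cell classes the 4 genes parted ways. Values are given for classes with at least 50 cells in a library, and bulk differences of this kind do not tell less RNA per cell from fewer cells that express a gene.

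*Cap1* was counted in every class and was higher in treated than in untreated *Enl*-T1 in each class compared. The ratio was 2.23 in distal tubule and loop of Henle-like cells (1.61 to 3.15), 2.88 in *Foxd1* stroma-like cells (2.28 to 3.64), 1.88 in the ureteric epithelium (1.72 to 2.06) and 2.88 in endothelial cells (2.31 to 3.59). All 15 clusters with enough cells had a ratio above 1 and an interval above 1, from 1.52 to 4.57. The ratio of 2.60 in NP1-like cells, the one that chose the gene, lay among these. In the ureteric epithelium, which lies outside the *Wt1* Cre lineage, 7.74% of genes were at least 1.5-fold higher and 9.78% lower in the treated library than in untreated *Enl*-T1, against *Enl*-WT, 5.72% were higher and 26.8% lower in *Enl*-T1, and 5.16% were higher and 32.1% lower in treated *Enl*-T1. Untreated *Enl*-T1 was also below *Enl*-WT in 4 of 4 lineages, with ratios from 0.435 in the nephron to 0.715 in the ureteric epithelium. In *Enl*-WT the renin and mesangial-like class had the highest *Cap1* level, 97.8 CPM, and NP1-like cells ranked 11 of 12 classes, though every neighbour in that order had overlapping intervals. In untreated *Enl*-T1, NP1-like cells were the lowest of 9 classes and did not overlap the next, *Foxd1* stroma-like cells at 27.0 CPM.

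*Skap1* was counted mainly in the nephron lineage and the ureteric epithelium. NP1-like cells had the highest level of the named classes in each library, overlapping with distal cells in both untreated libraries. In *Enl*-WT they were followed by distal tubule and loop of Henle-like cells at 22.8 CPM, intermediate-like cells at 21.8, with overlapping intervals, and the ureteric epithelium at 13.3. Podocyte-like, stromal and endothelial classes had between 1 and 5 UMIs each in *Enl*-WT, at or below 6.77 CPM. In treated *Enl*-T1 the steps were wider: 106.5 CPM in NP1-like cells, 49.7 in intermediate-like, 49.4 in distal and 30.1 in NP2-like cells, the class next to differentiate. The ureteric epithelium did not follow, with 10.48 CPM in untreated and 10.7 in treated *Enl*-T1, a ratio of 1.02 (0.825 to 1.26). The ratio of 3.10 in NP1-like cells chose the gene, so its distance from this one is not tested. Distal cells lay between, with a ratio of 1.5 (1.07 to 2.14). NP2-like cells, which numbered under 50 in untreated *Enl*-T1, had 2.96 times the *Enl*-WT level in the treated library (1.53 to 6.17).

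*Pik3r1* in *Enl*-WT was highest in stroma and lowest in progenitors. *Foxd1* stroma-like cells (216.7 CPM), stroma-like cells (202.9) and renin and mesangial-like cells (197.9) had the highest levels with overlapping intervals, and NP1-like (30.4) and NP2-like cells (23.8) the lowest. In untreated *Enl*-T1 the NP1-like class ranked 4 of 9, at 124.2 CPM, between stromal classes at 102.9 to 162.5. In the treated library it ranked 5 of 7, at 35.4 CPM, and *Foxd1* stroma-like cells had 151.0. Among the classes compared, *Enl*-T1 exceeded *Enl*-WT in NP1-like cells and in an unnamed nephron class, whose 2 clusters were led by *Sst* and *Akap12* and by red-cell genes. There *Enl*-T1 had 265.1 CPM, 3.75 times *Enl*-WT (2.47 to 5.96), and treated *Enl*-T1 57.8. The *Sst*-led cluster held 39 *Enl*-WT, 212 *Enl*-T1 and 15 treated cells, and the red-cell cluster 29, 67 and 60. The values of this class thus mixed its clusters in different proportions. Other classes had *Enl*-T1 to *Enl*-WT ratios below 1, as most genes did in them: 0.729 in the ureteric epithelium (0.668 to 0.797), 0.750 in *Foxd1* stroma-like cells (0.666 to 0.845), 0.802 in endothelial cells (0.676 to 0.951) and 0.552 in distal cells (0.425 to 0.709). Relative to the median of all genes in each class, the log2 ratio was -0.16 in the ureteric epithelium, -0.16 in *Foxd1* stroma-like cells, -0.01 in endothelial cells and -0.60 in distal cells, against 2.37 in NP1-like cells. The lowest ratio of *Enl*-T1 to *Enl*-WT was 0.520, in renin and mesangial-like cells, where the median log2 ratio of all genes was -0.28. For treated over untreated *Enl*-T1 the ratio was 0.930 in *Foxd1* stroma-like cells (0.817 to 1.06), an interval that includes 1. It was 0.784 in distal cells (0.588 to 1.05), 0.706 in the ureteric epithelium (0.645 to 0.774) and 0.545 in endothelial cells (0.417 to 0.704). Within the ureteric epithelium it ran from 0.626 to 1.13 over 4 clusters. The unnamed nephron class, with its clusters mixed in different proportions, had a ratio of 0.218. These stand beside the 0.285 of NP1-like cells, which chose the gene, and the distance between them is not tested.

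*Tenm4* was highest in podocyte-like cells in *Enl*-WT, at 199.5 CPM (178.7 to 222.0), followed by stroma-like (143.2) and NP2-like cells (140.2). It was low in the proximal tubule-like class (20.4) and in endothelial cells (9.34). In untreated *Enl*-T1 the NP1-like class was the highest of 9 named classes. In the treated library no named class exceeded 40.2 CPM, and the unnamed nephron class had 54.1. NP2-like cells had 140.2 CPM in *Enl*-WT and 40.2 in treated *Enl*-T1, a ratio of 0.287 (0.208 to 0.390). Treated over untreated *Enl*-T1 was 0.386 in distal cells (0.288 to 0.515) and 0.738 in *Foxd1* stroma-like cells (0.574 to 0.941). The pooled ureteric epithelium had a ratio of 0.926 (0.761 to 1.13), but 3 of its clusters had ratios of 0.508 to 0.619 with intervals below 1, and the fourth, led by *Fxyd4* and *Sprr2f*, had few counts (18 and 16 UMIs) and a ratio of 1.36 (0.647 to 2.82). The *Fxyd4*-led cluster held 535 of the 1172 untreated *Enl*-T1 cells and 279 of the 1022 treated cells, so the pooled value mixed clusters in different proportions. Endothelial cells had 27, 9 and 1 UMIs, too few for a ratio of weight.

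**Figure D3:**
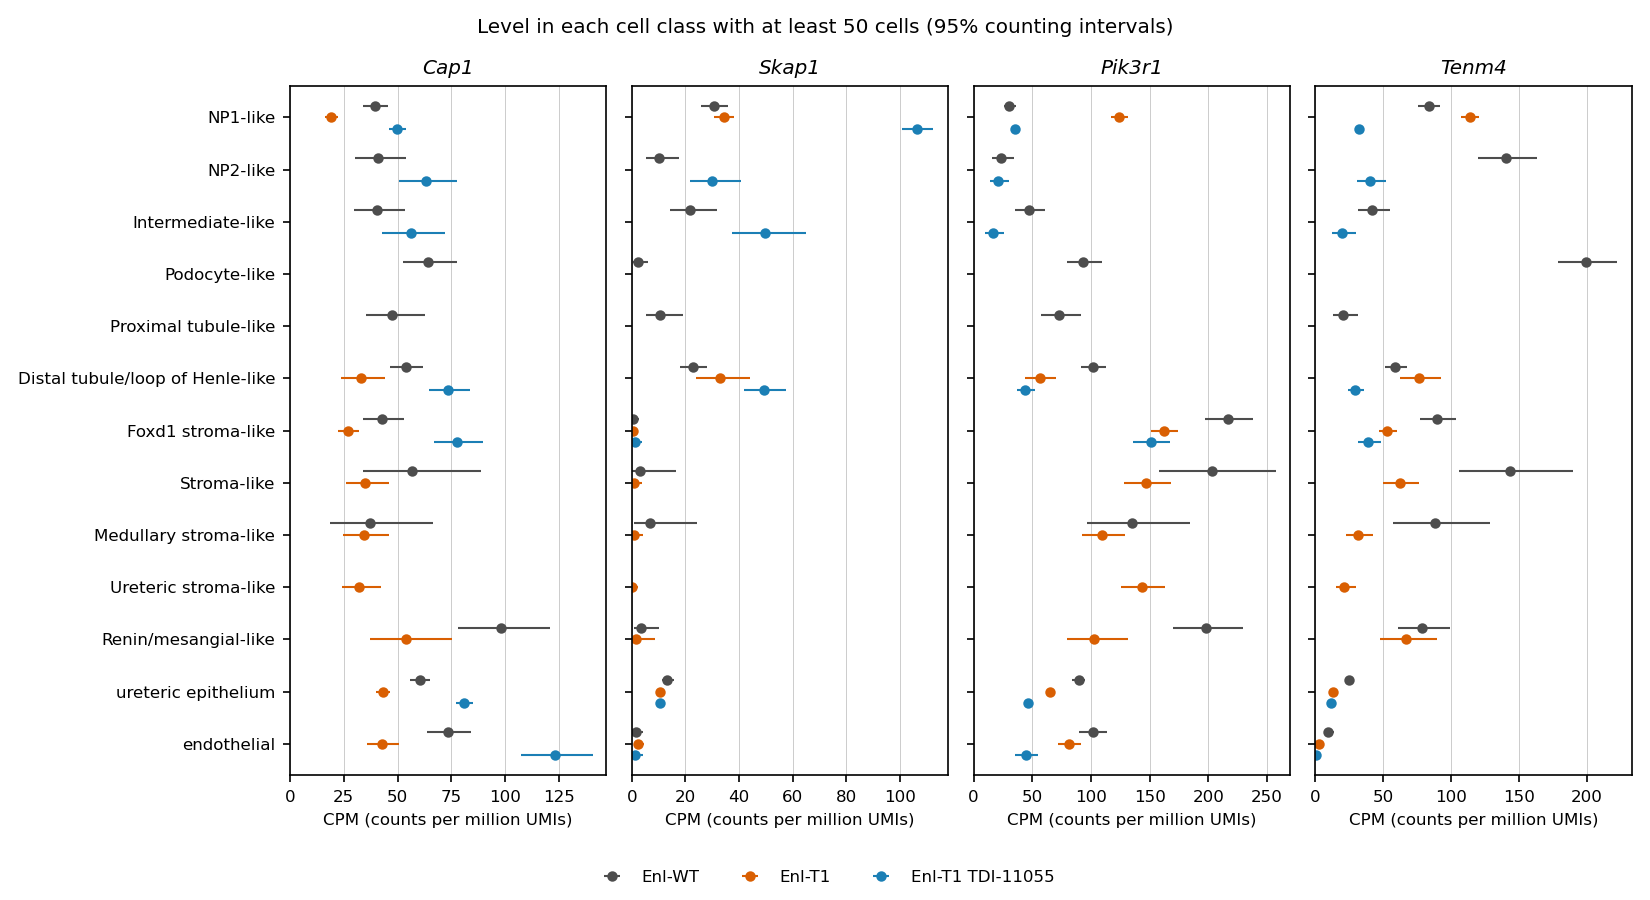
CPM of each gene (horizontal axis) in the cell classes with at least 50 cells in a library (vertical axis), with 1 point per library and bars for the 95% counting interval. *Cap1* has its rightmost point in treated *Enl*-T1 wherever that library is shown, *Skap1* is near 0 in stromal and endothelial classes, *Pik3r1* is highest in *Enl*-WT stroma, and *Tenm4* in *Enl*-WT podocyte-like cells.

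**Figure D4:**
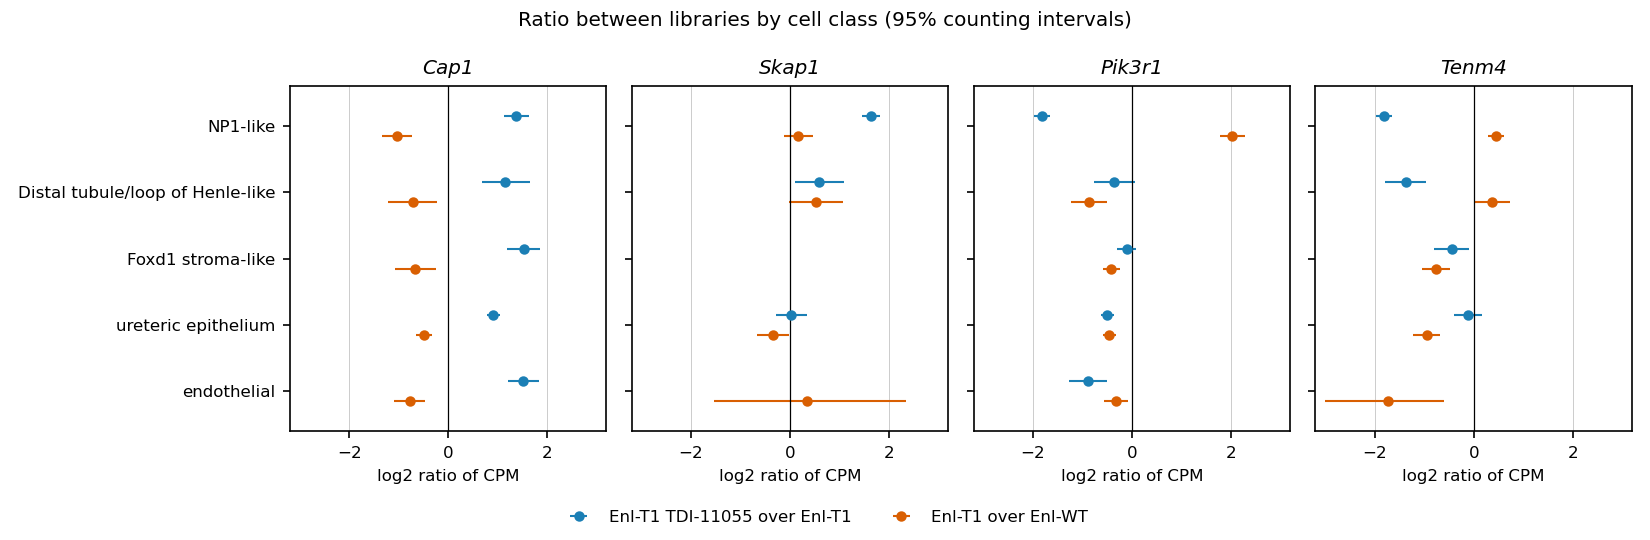
Log2 ratio of CPM (horizontal axis) in 5 classes (vertical axis) for treated over untreated *Enl*-T1 (blue) and *Enl*-T1 over *Enl*-WT (orange), with bars for the 95% counting interval and pairs with 3 or fewer UMIs on either side left out. The contrasts share the *Enl*-T1 library. The blue *Cap1* points lie right of 0 in all 5 classes. The blue *Pik3r1* points lie left of 0, from -1.81 in NP1-like cells, the value that chose the gene, to -0.11 in *Foxd1* stroma-like cells.

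The other genes of the pathways around the 4 members were taken from lists. Of 24 measured PI3K and AKT genes, 1 was at least 1.5-fold higher in treated than in untreated *Enl*-T1 (*Akt1*, the kinase downstream of PI3K, 1.80, 1.59 to 2.02) and 3 at least 1.5-fold lower, with a median log2 ratio of -0.24. The lower genes were *Inpp4b*, a phosphatase of PI3K lipids (0.368, 0.270 to 0.497), the insulin receptor gene *Insr* (0.643) and its substrate *Irs1* (0.655). The catalytic subunit gene *Pik3ca* had 93.9, 62.7 and 45.7 CPM in *Enl*-WT, *Enl*-T1 and treated *Enl*-T1. The other regulatory subunits did not share the *Pik3r1* pattern: *Pik3r2* had 20.6, 12.7 and 18.5 CPM and *Pik3r3* 33.2, 14.7 and 14.6. Against *Enl*-WT, 18 of the 24 genes were at least 1.5-fold lower in *Enl*-T1, where 31.9% of all genes were.

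Of 24 genes of actin turnover, 1 was at least 1.5-fold higher with treatment, the twinfilin gene *Twf2* (1.63, 1.39 to 1.92), and 0 were lower, with a median log2 ratio of 0.12. The paralogue *Cap2* had 15.3, 12.0 and 11.2 CPM. Of 9 measured adaptor and RAP1 genes, 2 were at least 1.5-fold higher: *Skap2*, the paralogue of *Skap1* (10.6, 4.77 and 8.54 CPM, ratio 1.79, 1.25 to 2.60), and the protein kinase D gene *Prkd2* (1.60, 1.01 to 2.62). Treated *Skap2* did not exceed the *Enl*-WT level as *Skap1* did. Among 11 measured genes of the list drawn up around the teneurins, 4 were at least 1.5-fold lower and 1 higher, with a median of -0.34. The teneurins *Tenm2* (1.28, 9.22 and 5.99 CPM, ratio 0.650) and *Tenm3* (83.5, 48.0 and 29.5 CPM, ratio 0.616) were both lower with treatment, as were the adhesion genes *Flrt1* (0.447) and *Flrt2* (0.612), and *Tenm1* was near 0 with 2 to 5 UMIs. *Mbp*, the myelin basic protein gene, was the higher one (8.50, 2.54 and 8.45 CPM, ratio 3.33, 2.12 to 5.42). Over all genes 6.1% were higher and 7.5% lower, and the lists of 9 to 24 genes were not tested against this.

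*Skap1* lies beside the *Hoxb* cluster, with 96.3 kb between *Hoxb1*, at the end of that cluster, and its start. Of its 10 annotated neighbours (5 on each side), 8 had at least 5 CPM in NP1-like cells, and 5 of these 8 were at least 1.5-fold higher in treated than in untreated *Enl*-T1 and 0 lower. On the *Hoxb* side, *Hoxb1* had 1.28, 7.41 and 54.9 CPM (6, 70 and 669 UMIs), a ratio of treated to untreated of 7.40 (5.78 to 9.61), *Hoxb2* had 74.6, 109.0 and 219.3 CPM, a ratio of 2.01 (1.87 to 2.16), and the antisense transcript *Hoxb3os* a ratio of 1.75, whereas *Hoxb3* stood at 0.963 (0.895 to 1.04). *Hoxb3os* overlaps *Hoxb2* and *Hoxb3*. On the other side, the sorting nexin gene *Snx11*, 8.43 kb beyond the end of *Skap1*, had 6.16, 7.84 and 18.9 CPM, a ratio of 2.41 (1.85 to 3.17), and the coatomer gene *Copz2* a ratio of 1.58 (1.38 to 1.82). Between them *Cbx1* (1.04) and *Nfe2l1* (0.825) did not share the difference. For *Cap1*, *Pik3r1* and *Tenm4*, 3, 1 and 3 neighbours were measured, with 1, 0 and 0 at least 1.5-fold higher and 0 lower. The one was *Trit1* beside *Cap1* (1.63, 1.26 to 2.12). The farthest measured neighbour was 1644 kb from *Cap1* (*Rlf*), 964 kb from *Pik3r1* (*Mast4*) and 461 kb from *Tenm4* (*Alg8*). For *Skap1* it was 117 kb away (*Hoxb3*), so the counts are not alike in reach. Over all genes 6.1% were higher and 7.5% lower.

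Within 1000 kb of *Skap1*, a window set after the 10 neighbours had been seen, 41 other genes were measured, and 10 were at least 1.5-fold higher with treatment and 0 lower, where 6.1% of all genes were higher. The median log2 ratio of the 41 was 0.04. The measured protein-coding *Hoxb* genes farther from *Skap1* had ratios from 0.785 for *Hoxb5* (0.717 to 0.860) to 1.22 for *Hoxb8* (1.10 to 1.36). The transcript *Hoxb5os* in the same stretch had a ratio of 1.36 (1.27 to 1.44). The highest ratios in the window were those of *Hoxb1*, *Skap1* and *Snx11*, followed by the receptor gene *Ngfr* (2.29, 1.43 to 3.81), far from *Skap1* on the *Hoxb* side. For *Enl*-T1 over *Enl*-WT the ratios were 5.81 for *Hoxb1* (2.54 to 16.4), 1.12 for *Skap1* and 1.27 for *Snx11* (0.818 to 2.03). In the ureteric epithelium, where *Hoxb2* had a ratio of 1.63 (1.51 to 1.76), *Snx11* had 1.14 (0.947 to 1.38), *Copz2* 1.03 (0.883 to 1.20) and *Hoxb1* only 9 and 15 UMIs.

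**Figure D5:**
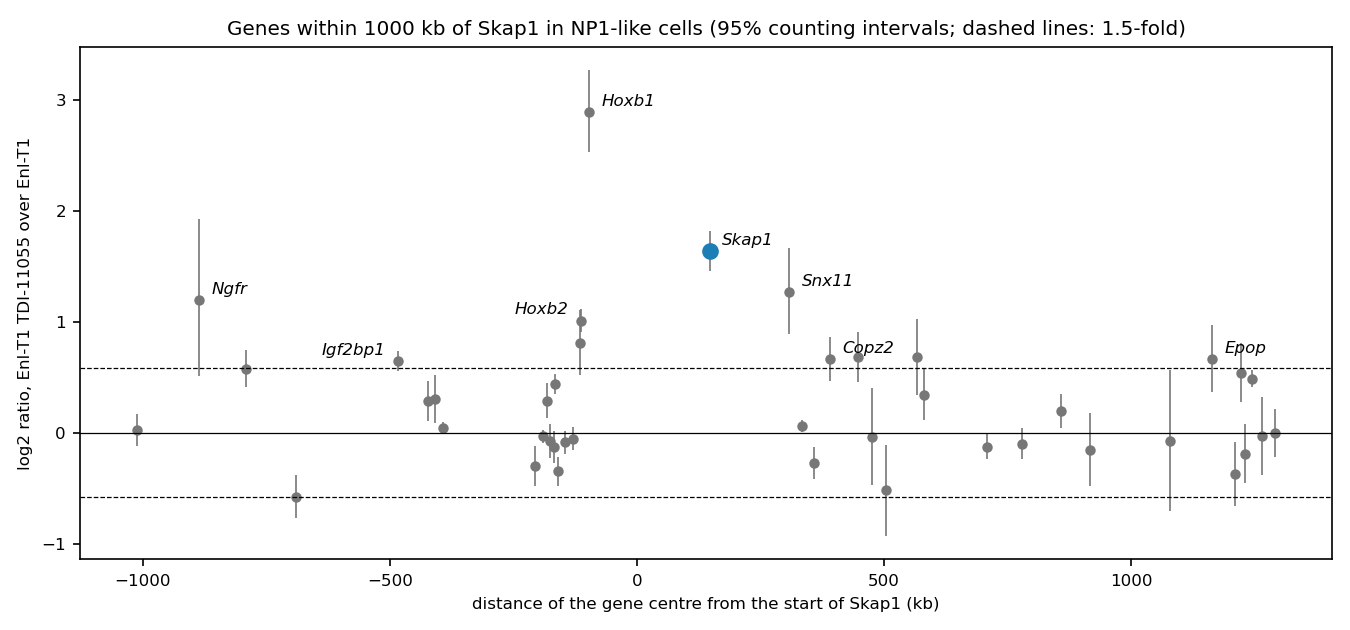
Log2 ratio of treated over untreated *Enl*-T1 in NP1-like cells (vertical axis) for genes with at least 5 CPM within 1000 kb of *Skap1*, against the distance of each gene's centre from the start of *Skap1* in kb (horizontal axis), with bars for the 95% counting interval and *Skap1* in blue. *Hoxb1*, *Skap1*, *Snx11* and *Ngfr* are the highest points, and most others lie between the dashed 1.5-fold lines.

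Transcripts that overlap the members were looked at because 3′ counts can be shared. *Cap1* overlaps *Ppt1* on the opposite strand, and *Ppt1* had 34.2, 30.6 and 24.7 CPM, an order unlike that of *Cap1*. The 3′ end of *Tenm4* overlaps the opposite-strand transcript *C230038L03Rik*, which had 27.6, 28.9 and 6.32 CPM, a ratio of treated to untreated *Enl*-T1 of 0.219 (0.167 to 0.282). The sources used here name Cell Ranger 6.1.2 but do not state whether counting used strand. Sharing of reads between a member and its overlapping transcript was not tested.

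Over 28 sums of a class in a library, which share libraries and so are not independent, *C230038L03Rik* was also the gene most like *Tenm4* (Pearson r of log2 CPM 0.92), followed by *Zfp882* (0.88) and *Pygo1* (0.84). The genes most like *Skap1* were *Cldn9* (0.87), *Cited1* (0.84) and *Paics* (0.84). *Cited1*, a gene of self-renewing progenitors, had 314.6, 65.0 and 194.9 CPM in NP1-like cells, so that unlike *Skap1* it stood far below *Enl*-WT in untreated *Enl*-T1. For *Cap1* they were the heat shock gene *Hspa1a* (0.77), *Arhgdia* (0.77) and *Stimate* (0.74). *Hspa1a*, which also answers to tissue handling, had 3.83, 5.40 and 56.9 CPM in NP1-like cells, and its part in the *Cap1* difference was not tested. For *Pik3r1* they were *Nfic*, *Eml3* and *Socs5* (0.84, 0.83 and 0.83), whose ratios of *Enl*-T1 to *Enl*-WT in NP1-like cells were 0.727, 0.718 and 1.31, against 4.09 for *Pik3r1*. Among the members themselves the strongest relation was *Skap1* with *Pik3r1* (r = -0.67).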

How the data were processed

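Droplet single-cell RNA sequencing (10x Genomics, 3′ ends) was performed by the authors on whole embryonic kidneys, with 1 library for each of 3 groups, taken from the labels. The deposited matrices hold raw counts of UMIs per gene and barcode, and the submitters' processing notes name Cell Ranger 6.1.2 and build mm10. The study's cell filter was applied, and Scrublet (scanpy 1.11.5) was run as an alternative. Libraries were integrated and clustered in Seurat 5.3.0 (R 4.3.3; 30 principal components at resolution 0.5, then 20 at 0.8 within nephron and stroma), leaving out the 4 genes, 43 *Hox* transcripts and 130 technical genes. Clusters were named from marker lists, so names may differ from the study's. Counts were summed by class and library and divided by the total UMIs. Intervals are exact Poisson, conditional binomial for ratios and Clopper-Pearson for shares, at 95%, and were tested on simulated counts. UMI totals were 37221435, 63336586 and 76619303 in *Enl*-WT, *Enl*-T1 and treated *Enl*-T1. Genes with a mean of at least 5 CPM in a class were compared, with 1.5-fold as the mark for counts. Gene IDs were matched to GENCODE M21 for 32235 of 32285. The genes named are the 4 members, paralogues, up to 3 listed genes per pathway past 1.5-fold, measured neighbours, and the 3 most alike genes of each member, and genes outside this rule were chosen after their values were seen. The 4 genes and the lists were chosen with earlier results of these data known. Alternatives are given in the closing section.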

Additional observations from a re-analysis of the deposited data

Results flagged for a closer look

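*Pik3r1* and *Tenm4* had log2 ratios of *Enl*-T1 over *Enl*-WT above 0 in NP1-like cells. Their ratios were below 0 in the ureteric epithelium, endothelial cells and *Foxd1* stroma-like cells. With 1 library per group the difference between cell types was not tested over samples. The log2 ratio of *Pik3r1* was 2.03 in NP1-like cells, but -0.46 in the ureteric epithelium, -0.32 in endothelial cells and -0.42 in *Foxd1* stroma-like cells. For *Tenm4* it was 0.45 in NP1-like cells, but -0.95 in the ureteric epithelium, -1.73 in endothelial cells (27 and 9 UMIs) and -0.76 in *Foxd1* stroma-like cells. The median of all genes in this contrast was -0.34 in NP1-like cells, -0.30 in the ureteric epithelium, -0.31 in endothelial cells and -0.26 in *Foxd1* stroma-like cells. Relative to these medians *Pik3r1* stood at 2.37, -0.16, -0.01 and -0.16, and *Tenm4* at 0.79, -0.65, -1.42 and -0.50. In these classes other than NP1-like cells *Pik3r1* lay near the shift of all genes. It lay below that shift in distal cells and in renin and mesangial-like cells, and above it in the unnamed nephron class.

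Barcodes left out by the cell filter also carried the 2 genes that were higher with treatment. *Cap1* had 71.1 CPM in the 3699 barcodes left out of the treated library, against 45.3 and 40.5 in those left out of *Enl*-WT and *Enl*-T1. *Skap1* had 22.3 CPM in the treated library, against 9.25 and 8. The cell types of these barcodes are not known.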

How the results depend on the processing

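No paired analysis was possible because each group is 1 library and the labels give no replicate numbers, and for the same reason no replicate could be left out. For treated over untreated *Enl*-T1 all 4 log2 ratios in progenitors kept their sign under 11 of 11 alternatives. *Cap1* (1.38) was 1.10 with cells thinned to 2000 UMIs. With at least 1500 genes and at most 5% mitochondrial counts per cell, *Skap1* (1.63) was 1.39 and *Tenm4* (-1.81) was -1.58. In male cells *Skap1* was 1.95, *Pik3r1* (-1.81) was -2.05 and *Tenm4* was -1.57, and with clustering on all variable genes *Pik3r1* was -2.16. That clustering left 377 treated and 583 untreated *Enl*-T1 cells in the NP1-like class, against 730 and 781. An unnamed cluster of all cells then held 570 treated, 129 untreated *Enl*-T1 and 40 *Enl*-WT cells. In the *Rspo3*-led cluster alone, an alternative chosen after seeing the data, *Cap1* was 1.02, *Skap1* 1.12, *Pik3r1* -2.00 and *Tenm4* -1.07, and with equal weight to the 4 clusters, also chosen after seeing the data, *Tenm4* was -1.63. For *Enl*-T1 over *Enl*-WT, median-of-ratios scaling shifted all genes by 0.33 and gave -0.70 for *Cap1* (-1.04), 0.50 for *Skap1* (0.17), 2.36 for *Pik3r1* (2.03) and 0.78 for *Tenm4* (0.45). A total without mitochondrial, ribosomal and haemoglobin genes gave *Tenm4* 0.69, a shift of 0.24. In male cells *Skap1* was -0.28 and *Tenm4* 0.22, with equal weight *Tenm4* was 0.28, and in the *Rspo3*-led cluster *Skap1* was 0.56 and *Pik3r1* 0.94. *Tenm4* reversed to -0.17 under the stricter cell filter and to -0.053 in the *Rspo3*-led cluster, both with intervals that include 0, and the cause was not tested. The difference in the share of cells, treated minus untreated *Enl*-T1, grew without thinning and at 4000 UMIs: *Cap1* from 7.32 to 32.0 and 12.2 percentage points, *Skap1* from 8.31 to 33.3 and 22.1, *Pik3r1* from -14.5 to -28.6 and -23.0, and *Tenm4* from -13.1 to -28.3 and -23.7. With no minimum beyond 1 UMI in each library, 1775 genes were at least 1.5-fold higher and 2476 lower, against 600 and 737, and 2 adaptor genes were lower, against 0. With 1 library per group, differences between embryos, litters and library preparations cannot be told apart from those between groups.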
